A study of Homo sapiens with 6 samples.

Results

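The genes described here are the ligands and receptors of the epidermal growth factor (EGF) family, measured in SUM149 cells, an established human line of inflammatory breast cancer. They were chosen by name, with earlier results of these data known. The ligands were EREG, AREG, TGFA, HBEGF, BTC and EGF, the receptors were EGFR, ERBB2 and ERBB3, and every array probe set paired with only 1 of these symbols was taken. Of the 9 genes, 8 had such a probe set, with 29 probe sets in all, 12 for ligands and 17 for receptors, out of 54613 probe sets tested for 19775 genes. AREG was not analysed here. The series holds 6 arrays. Cells transfected transiently with a non-targeting siRNA pool (siControl) gave 3 of them, and cells transfected with a pool against TIG1, whose current symbol is RARRES1 (siTIG1), gave the other 3. Both pools were used at 200 nmol/L with oligofectamine, in medium with serum, insulin and hydrocortisone. The model is limited to 1 established cell line, and the control pool belongs to the siGENOME line and the TIG1 pool to the ON-TARGET Plus line, so target and product line cannot be told apart. The comparison asks which transcripts differ after TIG1 knockdown.

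EGF family ligands are made as membrane-anchored precursors and are released by metalloproteases of the ADAM family. They bind ERBB receptors, which pair with each other on binding and signal as tyrosine kinases through the RAS-MAPK and PI3K-AKT pathways. EGFR binds all the ligands named here, HBEGF, BTC and EREG can also engage ERBB4, ERBB2 has no known ligand of its own, and ERBB3 has little kinase activity and signals through its partners. In basal-like breast cancer EGFR is often abundant, and ligands such as TGFA and AREG can act on the cells that secrete them.

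EREG and TGFA among the ligands and EGFR among the receptors carry the differences described below, so the 250 bases before their annotated starts are shown, from RefSeq on GRCh38.p14, 5′ to 3′ on the strand of the gene. EREG lies at chr4:74364895-74365144 (+), TGFA at chr2:70553827-70554076 (-) and EGFR at chr7:55018767-55019016 (+). For TGFA and EGFR, which have 2 windows each in that table, the first listed is shown. Capitals mark matches on either strand to 4 motifs, with no overlaps in these 3 windows. The first is TATAAA, read by the basal transcription machinery, and the second is GGGCGG, the box of SP1-type factors. The third is TGANTCA, the site of the AP-1 factors, and the fourth is AGGAAG, a core read by factors of the ETS family.
EREG: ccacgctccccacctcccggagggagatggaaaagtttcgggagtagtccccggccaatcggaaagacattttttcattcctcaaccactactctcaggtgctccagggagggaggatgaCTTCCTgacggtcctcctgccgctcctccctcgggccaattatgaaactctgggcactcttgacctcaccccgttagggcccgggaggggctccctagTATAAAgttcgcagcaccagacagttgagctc
TGFA: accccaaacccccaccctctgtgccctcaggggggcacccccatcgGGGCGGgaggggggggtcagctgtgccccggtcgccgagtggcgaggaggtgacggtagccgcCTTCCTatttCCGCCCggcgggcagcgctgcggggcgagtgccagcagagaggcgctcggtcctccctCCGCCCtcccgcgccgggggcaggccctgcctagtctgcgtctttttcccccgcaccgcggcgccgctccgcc
EGFR: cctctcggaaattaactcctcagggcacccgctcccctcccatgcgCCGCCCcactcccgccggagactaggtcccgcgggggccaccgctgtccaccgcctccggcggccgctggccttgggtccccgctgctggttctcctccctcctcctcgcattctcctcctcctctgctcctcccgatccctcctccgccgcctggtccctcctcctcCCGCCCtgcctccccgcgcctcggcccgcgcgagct
The EREG window holds 1 TATAAA match, which starts at base -32 counted from the start site, and 1 ETS match. The TGFA window holds 3 GGGCGG matches and 1 ETS match, and the EGFR window holds 2 GGGCGG matches. No AP-1 match was found in these letters. The second EGFR window, not shown, holds 2 TATAAA, 2 AP-1 and 1 ETS match. The second TGFA window, also not shown, holds no match to the 4 motifs. Of all 35116 promoter windows of this length, 10.7% hold TATAAA, 42.6% hold GGGCGG, 6.57% hold TGANTCA and 28.7% hold AGGAAG. GC content of the windows shown is 58.0% for EREG, 75.6% for TGFA and 73.6% for EGFR, against a median of 58.0% over all windows. It is 38.8% in the second EGFR window and 64.0% in the second TGFA window. None of the 4 motifs is in all 3 windows shown, and a match is a description, not a binding site.

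Facts of the arrays that touch all the values below come first. The arrays of siControl replicates 1 and 2 correlated at 0.998 across probe sets, whereas siControl replicate 3 correlated with them at 0.985 and 0.985. RARRES1, the targeted gene, had a lower mean in siTIG1 on each of its 3 probe sets (log2 differences of -1.28, -1.24 and -0.83), none of which passed (limma adjusted p = 0.197, 0.227 and 0.273, with adjustment across the probe sets). On those probe sets siControl replicate 3 lay 1.11 to 1.66 above the other controls, and siTIG1 replicate 1 lay 0.72 to 0.77 above the other siTIG1 arrays, so directions from the siTIG1 group include an array with little reduction of its target. Without siControl replicate 3 these differences were -0.75, -0.68 and -0.46, and the first and second passed (limma adjusted p = 0.0244, 0.0428 and 0.160). The 5 epithelial markers had means of 12.10 to 14.39 on the control arrays, and KRT19 rose by 1.00 (limma adjusted p = 0.0164). Of 3 measured basal-like markers CDH3, at 12.87, rose by 0.49 (limma adjusted p = 0.0073), while KRT5 at 12.52 and KRT14 at 8.47 did not pass. The part of these marker changes in the results below was not tested. Of the 4 luminal markers PGR was at 6.91, FOXA1 at 8.33, ESR1 at 8.77 and GATA3 at 10.99, beside a median gene mean of 8.69. GATA3 differed by 0.54 and did not pass (limma adjusted p = 0.0578). No measured marker of other cell types passed. Their control means were 6.73 to 8.84 for 3 leukocyte markers, 7.26 to 10.12 for 4 fibroblast markers and 5.74 to 9.28 for 3 endothelial markers, the highest being CD3E, COL1A1 and PECAM1. The deposited values carry no detection call, so a low value is not shown to lie above background.

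Among ligands, EREG and TGFA fell in the siTIG1 group. Among receptors, EGFR fell on 2 of its 9 probe sets, while no probe set of ERBB2 or ERBB3 passed. With 1 probe set per gene, 2 of 5 ligand genes and 0 of 3 receptor genes passed as lower and none as higher (limma, Benjamini-Hochberg adjusted p under 0.05). For comparison 7.29% of all genes passed, 4.14% as lower and 3.16% as higher. The members were chosen with earlier results of these data known, so counts beside such shares are a description and not a test. With every probe set tested, 2 of 12 ligand and 2 of 17 receptor probe sets passed as lower and 0 of 29 as higher, where 5.01% of all probe sets passed, 2.87% as lower and 2.14% as higher. At an unadjusted p under 0.05 the counts were 5 ligand and 5 receptor probe sets, beside 19.1% of all probe sets. The median log2 difference (siTIG1 minus siControl) was -0.50 over the ligand genes and -0.04 over the receptor genes, beside 0.02 over all genes. It was -0.26 over the ligand probe sets and -0.05 over the receptor probe sets, beside 0.01 over all probe sets. The receptor median thus hides a split that runs within EGFR. Some EGFR probe sets differed by -1.94 to -1.43, and all other receptor probe sets, of EGFR too, by -0.33 to 0.11.

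**Figure D1:**
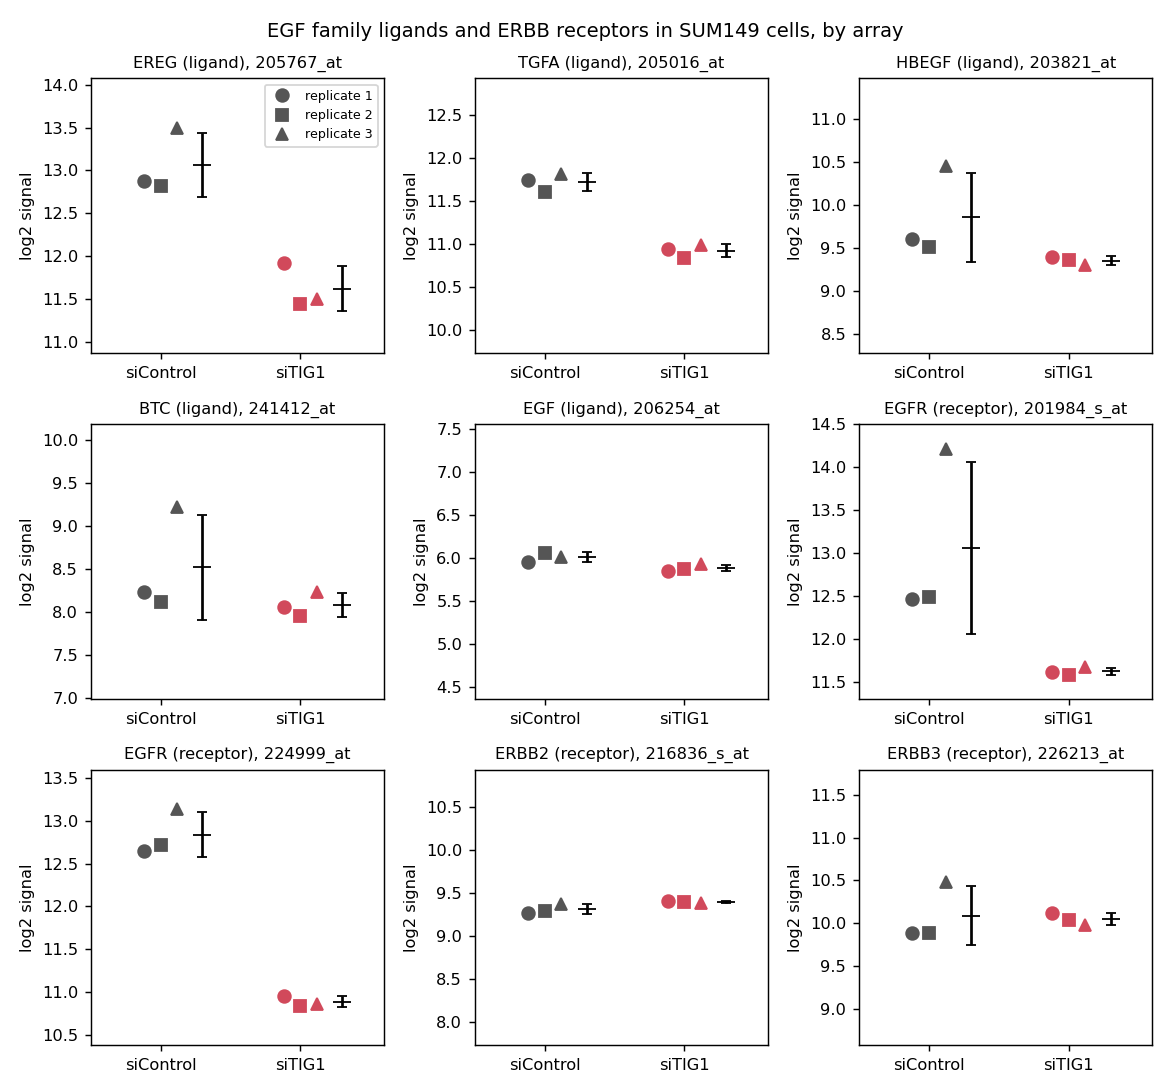
Log2 signal on each of the 6 arrays for the probe set that represents each gene, and for the EGFR probe set 224999_at. Marker shapes give the replicate number, the bar beside each group is the mean with SD (n = 3), and every panel spans the same log2 range. The EREG, TGFA, HBEGF, EGF and both EGFR panels show all siTIG1 arrays below all siControl arrays, and the ERBB2 panel shows them all above. The margin is narrow for EGF and ERBB2. Over all genes 15.3% had the first order and 16.6% the second. The array of siControl replicate 3 sits well above the other controls for EREG, HBEGF, BTC, ERBB3 and EGFR 201984_s_at.

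EREG encodes epiregulin, a ligand of EGFR and ERBB4. In a bulk extract such as this one, fewer expressing cells and less RNA per cell cannot be told apart. Its brighter probe set, 205767_at, read 12.88, 12.82 and 13.50 on siControl replicates 1, 2 and 3 and 11.93, 11.44 and 11.50 on the siTIG1 replicates. All siTIG1 arrays were below all controls, siControl replicate 3 was the highest control, and siTIG1 replicate 1 was the highest siTIG1 array. The group means were 13.07 ± 0.37 and 11.62 ± 0.27 (SD, n = 3 each), and the log2 difference was -1.44 ± 0.22 (SE), 2.72-fold lower (limma adjusted p = 0.0155 over all genes). The exact 2-sided permutation test gave p = 0.1, the smallest that 3 against 3 arrays allow. The second probe set, 1569583_at, read 9.08, 9.33 and 9.85 on the controls and 8.85, 8.21 and 8.16 on the siTIG1 arrays. Replicate 1 was again the highest siTIG1 array, and the difference was -1.02 ± 0.25 (SE), short of the threshold (limma adjusted p = 0.0795 across probe sets, where that of 205767_at was 0.0172). The array siTIG1 replicate 1 lay above the other siTIG1 arrays by 0.46 and 0.66 on the EREG probe sets, on the same array where RARRES1 was highest within its group. The same gap was 0.03 for TGFA 205016_at. For EGFR it was 0.11 on 224999_at, 0.33 on 201983_s_at and -0.02 on 201984_s_at. The part of that array in the EREG result was not tested beyond leaving it out, which kept the call. Leaving out siTIG1 replicate 2 or 3 ended it (limma adjusted p = 0.0893 and 0.0900, differences of -1.35 and -1.38). Without siControl replicate 3 the difference was -1.23 (limma adjusted p = 1.0e-04).

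TGFA encodes transforming growth factor alpha, a ligand of EGFR. Probe set 205016_at read 11.74, 11.61 and 11.82 on the controls and 10.94, 10.84 and 10.98 on the siTIG1 arrays. The arrays of each group lay close together and the groups did not overlap, and siControl replicate 3 was only 0.15 above the other controls. The means were 11.72 ± 0.11 and 10.92 ± 0.08 (SD, n = 3 each), and the difference was -0.80 ± 0.07 (SE), 1.74-fold lower (limma adjusted p = 0.0043 over all genes). With any 1 array left out the difference stayed between -0.86 and -0.75 and the call was kept (limma adjusted p of at most 0.0361). The other TGFA probe sets had lower signals. Probe set 211258_s_at averaged 8.78 ± 0.07 and 8.63 ± 0.05 (SD, n = 3 each), a difference of -0.15 (limma adjusted p = 0.246 over all probe sets), and 205015_s_at averaged 8.01 and 7.99, a difference of -0.03. The TGFA fall thus rests on 1 of 3 probe sets, and with the probe sets averaged it was -0.33 and still passed.

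HBEGF encodes heparin-binding EGF-like growth factor, which binds EGFR and ERBB4. Its probe set 203821_at read 9.61, 9.51 and 10.45 on the controls and 9.40, 9.37 and 9.30 on the siTIG1 arrays. The groups did not overlap, but most of the distance between their means came with siControl replicate 3, which lay 0.89 above the other controls. The difference was -0.50 ± 0.24 (SE, limma adjusted p = 0.298 over all genes) with all arrays, and -0.21 without that array, when it passed (limma adjusted p = 0.0250). A second probe set, 38037_at, behaved in the same way, at -0.37 ± 0.12 (SE, limma adjusted p = 0.169 across probe sets) and at -0.23 without that array (limma adjusted p = 0.0410). The remaining HBEGF probe sets, 244857_at and 222076_at, had low means of 6.97 and 6.88 on the controls and differences of 0.03 and 0.11, neither of which passed.

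BTC, which encodes betacellulin, a ligand of EGFR and ERBB4, and EGF itself did not pass on any probe set. BTC probe set 241412_at read 8.23, 8.11 and 9.22 on the controls and 8.06, 7.95 and 8.23 on the siTIG1 arrays. Only siControl replicate 3 stood apart, 1.05 above the other controls, and the groups overlapped. The BTC difference was -0.44 ± 0.29 (SE, limma adjusted p = 0.454 over all genes) and -0.09 without that array (limma adjusted p = 0.477). Probe set 207326_at of BTC averaged 5.12 and 5.11. EGF was read by 206254_at at 5.96, 6.06 and 6.02 on the controls and 5.85, 5.87 and 5.93 on the siTIG1 arrays. These EGF values are low, the groups did not overlap by a narrow margin, and the difference of -0.13 had a 95% confidence interval of -0.26 to 0.0029 and did not pass (limma adjusted p = 0.239 over all genes). In all, 4 of 5 ligand genes had siTIG1 arrays entirely below the controls, an order found for 15.3% of all genes.

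EGFR, the receptor for all these ligands, had the largest differences of the 29 probe sets. Probe set 224999_at read 12.65, 12.72 and 13.13 on the controls and 10.96, 10.84 and 10.87 on the siTIG1 arrays. The gap between the groups was far wider than the spread within either, and siControl replicate 3 was the highest control, 0.45 above the mean of the others. The means were 12.83 ± 0.26 and 10.89 ± 0.06 (SD, n = 3 each), and the log2 difference was -1.94 ± 0.13 (SE), 3.85-fold lower (limma adjusted p = 0.00225 over all probe sets, exact permutation p = 0.1). With any 1 array left out the difference lay between -2.04 and -1.79 and the call was kept (limma adjusted p of at most 0.0314). Probe set 201983_s_at read 12.61, 12.79 and 13.73 on the controls and 11.57, 11.24 and 11.23 on the siTIG1 arrays. It fell by 1.70 ± 0.29 (SE) on the log2 scale, 3.24-fold (limma adjusted p = 0.0268 across probe sets). That call was lost without siControl replicate 2 or any 1 siTIG1 array (limma adjusted p of 0.0703 to 0.135), and without siControl replicate 3 the difference was -1.35 (limma adjusted p = 6.7e-05).

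The probe set with the highest EGFR mean, 201984_s_at, represents the gene in the test over genes and did not pass there. It read 12.47, 12.49 and 14.22 on the controls and 11.61, 11.59 and 11.67 on the siTIG1 arrays. The siTIG1 arrays lay close together and below every control, but siControl replicate 3 was 1.74 above the other controls, the largest such gap among the 29 probe sets. The means were 13.06 ± 1.00 and 11.62 ± 0.05 (SD, n = 3 each), and the difference was -1.43 ± 0.46 (SE, limma adjusted p = 0.138 over all genes). Without that array it was -0.86 and passed (limma adjusted p = 7.1e-06), and with the EGFR probe sets averaged it was -0.62 (limma adjusted p = 0.0492). Whether EGFR is called thus depends on which of its bright probe sets is read. All 3 had the same sign and siTIG1 arrays entirely below the controls. That order was found for 5 of the 17 receptor probe sets and for 13% of all probe sets.

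The other 6 EGFR probe sets had lower signals and smaller differences, and none passed with all arrays. The probe sets 210984_x_at and 211607_x_at, of a kind that can bind several transcripts, averaged 9.22 and 9.09 on the controls and differed by -0.32 ± 0.09 and -0.33 ± 0.11 (SE). Both passed as lower without siControl replicate 3, at -0.22 and -0.21 (limma adjusted p = 0.0268 and 0.0376). Probe sets 1565483_at and 1565484_x_at averaged 10.26 and 10.05 on the controls and differed by 0.05 and 0.08, and 211551_at and 211550_at averaged 7.87 and 7.80 and differed by -0.07 and 0.06. The EGFR probe sets were thus of 2 kinds, those with differences from -1.94 to -1.43 and those with differences from -0.33 to 0.08. Which EGFR transcripts each of them reads was not analysed here. The gap in log2 signal between the 3′ and the 5′ control probe set of ACTB, a measure of RNA degradation, averaged 2.85 ± 0.31 in siControl and 2.25 ± 0.10 in siTIG1 (SD, n = 3 each, exact permutation p = 0.1). For GAPDH the same gap averaged 0.50 ± 0.06 in siControl and 0.46 ± 0.0065 in siTIG1 (SD, exact permutation p = 0.2). For ACTB every control array lay above every siTIG1 array. The array of siControl replicate 3 had the largest gap for both, 3.21 for ACTB and 0.57 for GAPDH. On siControl replicates 1 and 2 the gaps were 2.73 and 2.62 for ACTB and 0.48 and 0.46 for GAPDH. The part of RNA quality in the differences of EGFR, EREG, TGFA and the other genes was not tested.

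**Figure D2:**
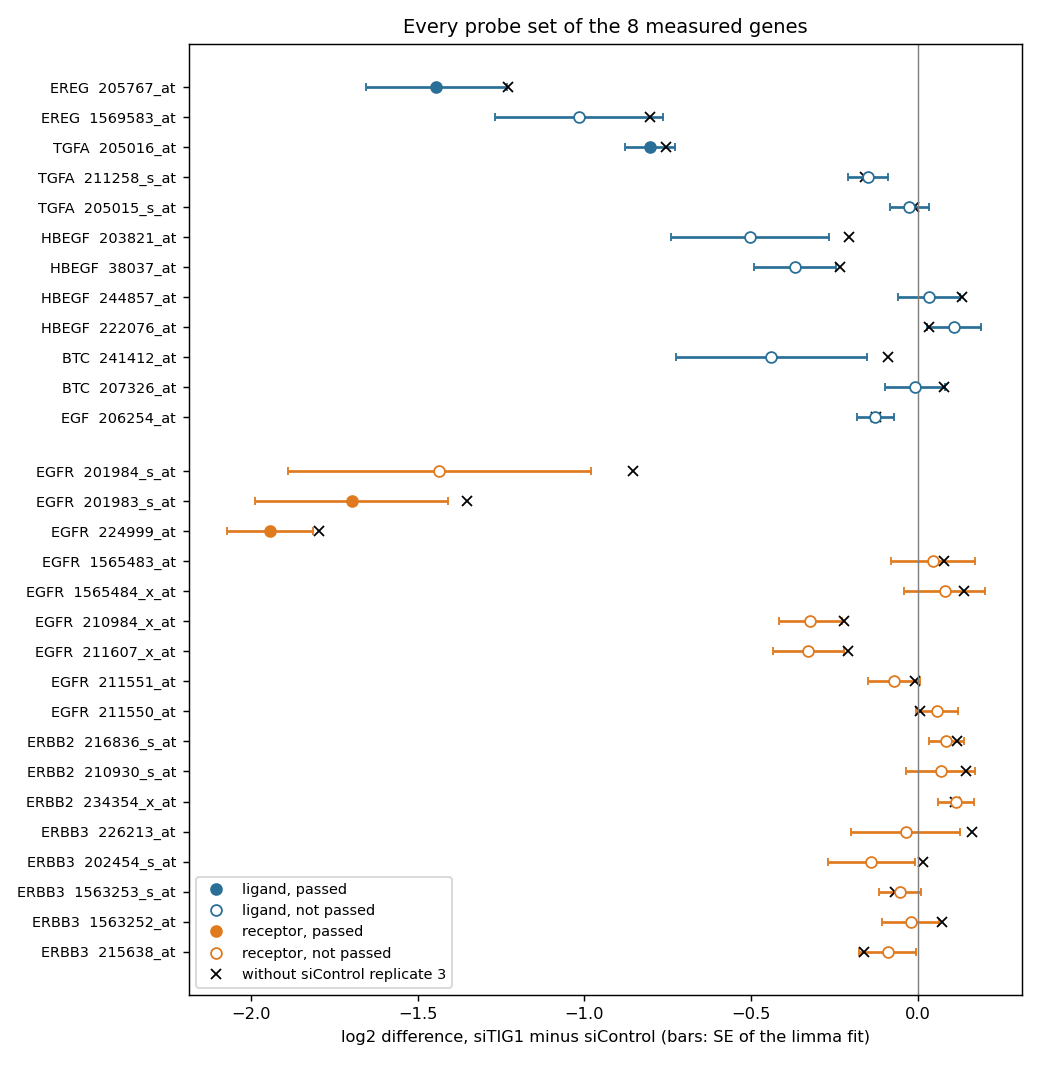
Log2 difference, siTIG1 minus siControl, with the SE of the limma fit for the 29 probe sets, ligands in blue above and receptors in orange below. Filled points passed an adjusted p of 0.05 over all probe sets, and crosses give the difference without siControl replicate 3. The 4 filled points are EREG 205767_at, TGFA 205016_at and EGFR 201983_s_at and 224999_at.

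ERBB2, the receptor without a ligand of its own that is targeted in HER2-positive breast cancer, did not pass on any of its 3 probe sets. Probe set 216836_s_at read 9.27, 9.30 and 9.38 on the controls and 9.41, 9.40 and 9.39 on the siTIG1 arrays. All arrays lay within a narrow range, with the siTIG1 arrays just above the controls, an order found for 16.6% of all genes. The difference was 0.09 ± 0.05 (SE), with a 95% confidence interval of -0.04 to 0.21 (limma adjusted p = 0.405 over all genes). The other ERBB2 probe sets had means of 5.77 and 5.35 on the controls and differences of 0.07 and 0.11. All 3 ERBB2 differences were positive and small.

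ERBB3, the receptor that signals through its partners, did not pass on any of its 5 probe sets. Probe set 226213_at read 9.89, 9.89 and 10.48 on the controls and 10.13, 10.05 and 9.98 on the siTIG1 arrays. The siTIG1 arrays lay between siControl replicates 1 and 2 and siControl replicate 3. The difference was -0.04 ± 0.17 (SE), with a 95% confidence interval of -0.44 to 0.37 (limma adjusted p = 0.928 over all genes). Its sign turned without siControl replicate 3, to 0.16 (limma adjusted p = 0.0677), with weights on the arrays, to 0.13, and with quantile normalization, to 0.01, so no direction is given for ERBB3. Probe set 202454_s_at read 9.94, 9.92 and 10.40 on the controls and 9.93, 9.97 and 9.94 on the siTIG1 arrays, again with only siControl replicate 3 apart. The other 3 ERBB3 probe sets differed by -0.09 to -0.02.

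The array of siControl replicate 3 read higher than the mean of the other controls on 23 of the 29 probe sets and lower on 6, with a median of 0.26. Over all probe sets the median size of this gap, whatever its sign, was 0.13. By more than 0.5 that array was higher on 7 probe sets of 5 genes, EREG, HBEGF, BTC, EGFR and ERBB3. For TGFA 205016_at and ERBB2 216836_s_at the gaps were 0.15 and 0.09. Set against siControl replicates 1 and 2 alone, the siTIG1 means of the bright EGFR probe sets differed by -1.79 to -0.86, that of EREG 205767_at by -1.23 and that of TGFA 205016_at by -0.75. Without that array 10 of the 29 probe sets passed as lower and 0 as higher, beside 18.9% of all probe sets in either direction, 11% as lower and 7.87% as higher. Those 10 were 2 of EREG, 1 of TGFA, 2 of HBEGF and 5 of EGFR. At gene level 3 of 5 ligands (EREG, TGFA and HBEGF) and 1 of 3 receptors (EGFR) were then lower, beside 27.1% of all genes in either direction, 14.8% as lower and 12.2% as higher.

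**Figure D3:**
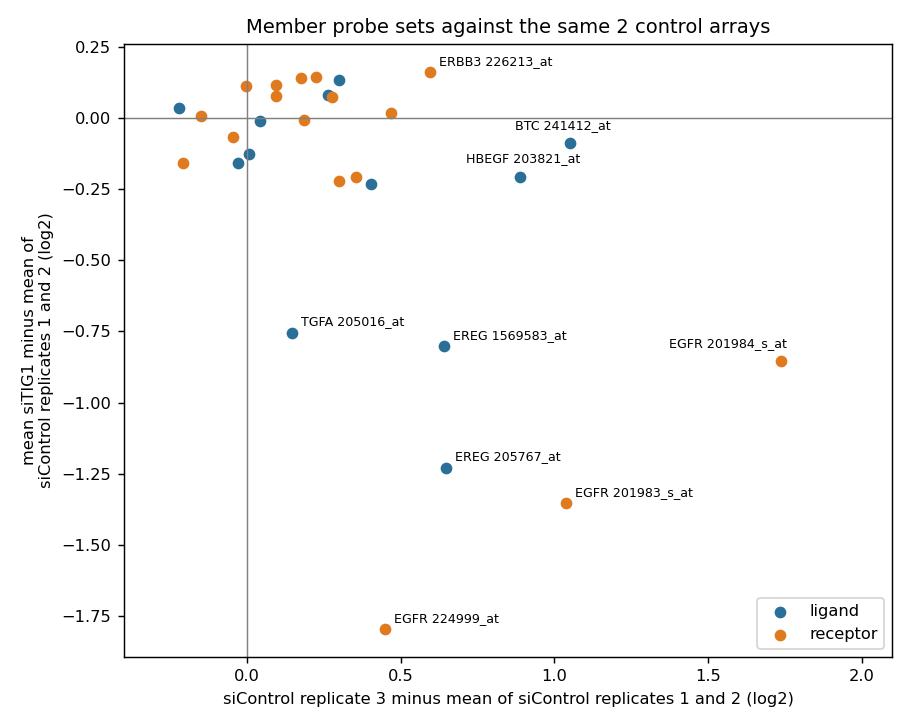
For each of the 29 probe sets, the log2 gap between siControl replicate 3 and the mean of siControl replicates 1 and 2 (horizontal) against the log2 difference between the siTIG1 mean and the same 2 controls (vertical). Both axes share those 2 control arrays. The labelled probe sets of EGFR, EREG and TGFA lie low on the vertical axis and their other probe sets between -0.22 and 0.14, while BTC 241412_at and HBEGF 203821_at lie to the right with vertical values of -0.09 and -0.21.

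Genes whose signals ran most like those of EREG over the 6 arrays, among 9881 genes above the median level, were HTRA1, a secreted serine protease, MAT2A, a methionine adenosyltransferase, and PLEC, the cytoskeletal linker plectin (Pearson r of 0.999, 0.999 and 0.998). Their differences were smaller than that of EREG, at -0.65, -0.57 and -0.63. In all, 490 of the 9881 genes reached a correlation of 0.95 with EREG, so likeness over 6 arrays in 2 groups singles out little. Those most like EGFR 201984_s_at were ZCCHC8, SLC30A1, a zinc exporter, and IARS1, the isoleucyl-tRNA synthetase (r of 0.999 each). Their differences of -0.34, -0.26 and -0.40 did not pass, and siControl replicate 3 lay 0.31 to 0.46 above the other controls for them. For EGFR 798 genes reached 0.95.

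The rest of the pathway was read from 7 lists with 70 measured genes, of which 2 passed as higher, 10 as lower and 58 did not pass, with a median log2 difference of -0.09. Over all genes, as above, 3.16% passed as higher and 4.14% as lower. The lists were drawn up with earlier results of these data known. No other ligand or receptor passed: of 5 measured, the neuregulins NRG2 and NRG3, which signal through ERBB3 or ERBB4, differed by 0.16 ± 0.06 and -0.13 ± 0.07 (SE), and the receptor ERBB4 by 0.13 ± 0.09. None of 11 genes for shedding and trafficking of ligands passed, with a median of 0.09. Among them the metalloprotease ADAM9 differed by 0.28 ± 0.08 (SE, limma adjusted p = 0.102), the cargo receptor CNIH4 by 0.15 ± 0.05 and the inactive rhomboid RHBDF2, a partner of ADAM17, by -0.18 ± 0.07. ADAM17, the main sheddase of TGFA and EREG, averaged 11.15 and 11.32, and differed by 0.18 ± 0.16 (SE, limma adjusted p = 0.597) with all arrays and by 0.37 without siControl replicate 3 (limma adjusted p = 0.0015). It was chosen after its values were seen.

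Of 13 measured adaptors and proximal kinases, VAV2, a guanine nucleotide exchange factor phosphorylated by active receptors, fell by 0.93 ± 0.16 (SE) on the log2 scale (limma adjusted p = 0.0223). SHC1, the adaptor that links activated receptors to GRB2, rose by 0.45 ± 0.09 (SE, limma adjusted p = 0.0374). SHC1 read 13.06, 13.04 and 12.75 on the controls and 13.40, 13.41 and 13.40 on the siTIG1 arrays, so siControl replicate 3 was the lowest control. The adaptor NCK2 differed by -0.21 ± 0.05 (SE) and did not pass (limma adjusted p = 0.0628). Of 16 inhibitors, ubiquitin ligases and endocytosis genes, the endocytic adaptor EPS15 fell by 0.45 ± 0.08 (SE, limma adjusted p = 0.0317) and HGS, which sorts ubiquitinated receptors to lysosomes, fell by 0.39 ± 0.08 (SE, limma adjusted p = 0.0395). The ubiquitin ligase CBLB differed by 0.80 ± 0.22 (SE) and did not pass (limma adjusted p = 0.0956), with siControl replicate 3 at 10.51 and the other controls at 9.75 and 9.63. Of these, VAV2, SHC1, EPS15 and HGS all lost their calls with any 1 siTIG1 array left out (limma adjusted p of 0.0938 to 0.168) and without siControl replicate 1 (0.0519 to 0.0652), SHC1, EPS15 and HGS also without siControl replicate 2 (0.0787 to 0.101), and all passed without siControl replicate 3. With the probe sets of a gene averaged VAV2, SHC1 and EPS15 did not pass (limma adjusted p = 0.129, 0.0844 and 0.189).

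In the RAS-MAPK core 7 genes were measured, of which KSR1, a scaffold of the kinase cascade, rose by 0.98 ± 0.20 (SE, limma adjusted p = 0.0375). It read 9.45, 9.39 and 10.10 on the controls and 10.79, 10.54 and 10.55 on the siTIG1 arrays. The groups did not overlap, but the call was lost with any 1 array other than siControl replicate 3 left out (limma adjusted p of 0.106 to 0.144) and with its probe sets averaged (0.109). The kinases MAP2K1 and MAP2K2 differed by -0.24 ± 0.06 and -0.22 ± 0.07 (SE) and did not pass (limma adjusted p = 0.0639 and 0.116). In the PI3K-AKT core PIK3R3, a regulatory subunit of PI3-kinase, fell by 0.62 ± 0.05 (SE, limma adjusted p = 0.0039), and the other 7 measured genes did not pass. PIK3R3 read 10.49, 10.53 and 10.47 on the controls and 9.90, 9.80 and 9.91 on the siTIG1 arrays, with siControl replicate 3 level with the other controls. With its probe sets averaged it fell by 0.36 and still passed (limma adjusted p = 0.0338). PIK3CB and PIK3R1, other subunits of the enzyme, differed by -0.17 ± 0.06 and 0.22 ± 0.15 (SE).

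The 10 genes known as transcriptional output of MAPK signalling had the lowest median of the 7 lists, -0.91, with 6 that fell, 0 that rose and 4 that did not pass. Over all genes 4.14% passed as lower and 3.16% as higher. Like the other lists, this list was drawn up with earlier results of these data known. ETV4 and ETV5, ETS family transcription factors, fell by 0.83 ± 0.09 and 1.25 ± 0.19 (SE, limma adjusted p = 0.0059 and 0.0161). SPRY4, a Sprouty inhibitor of receptor signalling, fell by 0.54 ± 0.09 (SE, limma adjusted p = 0.0209). The call of ETV4 was lost without siTIG1 replicate 2 (limma adjusted p = 0.0504), and those of ETV5 and SPRY4 without any 1 siTIG1 array (0.0769 to 0.112), that of SPRY4 also without siControl replicate 1 (0.0688). With its probe sets averaged ETV5 fell by 0.50 and still passed (limma adjusted p = 0.0318). The others that fell were SPRY2, the receptor tyrosine kinase EPHA2, and PHLDA1. EPHA4 was the only one with a positive difference, 0.15 ± 0.07 (SE), and it did not pass. These genes share their arrays and controls with the EGF family genes, so the falls in both are not independent of each other. Without siControl replicate 3, 9 of the 10 fell and the median was -0.85, and over the 7 lists 12 of 70 rose and 22 fell, beside 12.2% of all genes as higher and 14.8% as lower. With any other single array left out, 1 to 5 of the 70 genes passed, beside 217 to 588 of all 19775 genes.

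**Figure D4:**
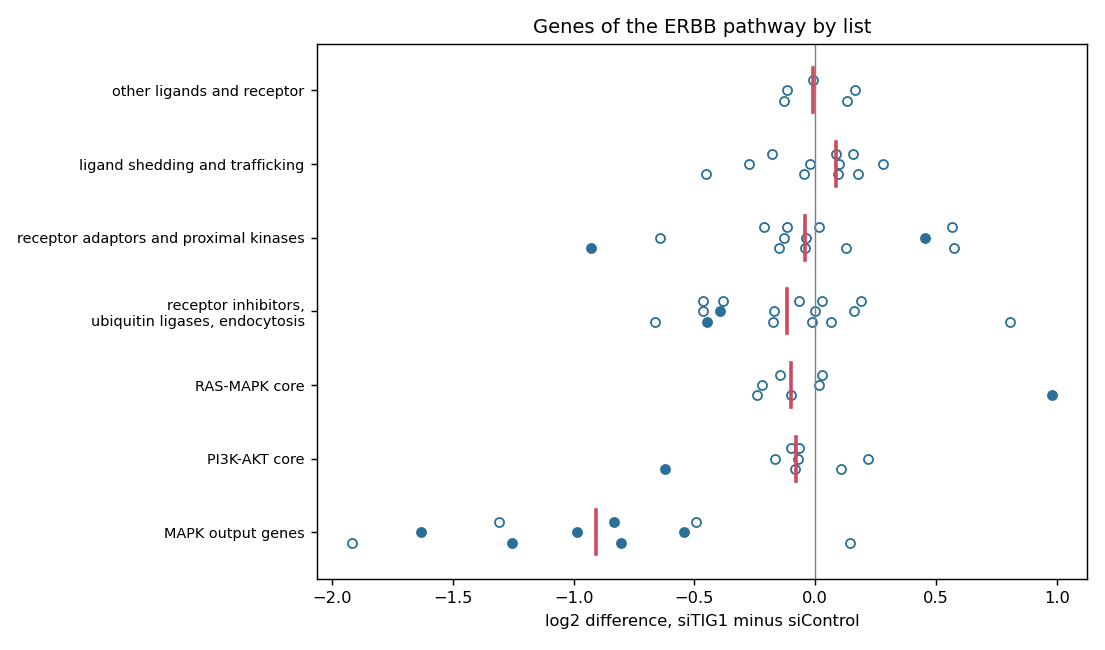
Log2 difference, siTIG1 minus siControl, for the 70 measured genes of the 7 pathway lists, 1 point a gene, with small vertical offsets for legibility. Filled points passed an adjusted p of 0.05 over all genes and red bars are list medians. The MAPK output genes have their median at -0.91 and the other lists between -0.12 and 0.09.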

How the data were processed

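Affymetrix HG-U133 Plus arrays were hybridised with cRNA carrying biotin, per the labels. The deposited table holds 1 log2 value for each probe set and array. Its log base is unstated and was read as 2 from the range of the values, 4.28 to 15.59. The submitters' processing notes list MAS5 and RMA without saying which made these values. Medians of the 6 arrays ran from 7.87 to 7.90, so the values were used as the authors deposited them. Such normalization would hide a shift of most genes one way. Symbols came from the platform annotation, updated through RefSeq, and 62 control probe sets were dropped.

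Both groups were fitted with limma 3.58.1 (R 4.3.3, lmFit and eBayes, 2-sided, no block) and p-values adjusted by Benjamini-Hochberg at 0.05, once over 19775 genes and once over 54613 probe sets. A gene was represented by its brightest probe set, with x_at ones used only where no other existed. The code was tested on simulated data. Nothing in the labels shows that replicates were separate cultures, so p-values reflect the spread between arrays, possibly technical, and the number of arrays limits the precision. Members and lists were chosen with earlier results of these data known. Genes named were the members, RARRES1, up to 3 of each list by p and the 3 most like EREG and EGFR. ADAM17, markers and other genes that complete a count were named besides. Other settings were quantile normalization, centring on the median, leaving out features under the 40th percentile, averaged probe sets, a trended robust fit, array weights, a replicate block and each array left out.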

Additional observations from a re-analysis of the deposited data

How the results depend on the processing

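The falls of TGFA and of EGFR probe set 224999_at kept their call under all alternatives run (limma adjusted p of at most 0.0361 and 0.0330). At gene level 2 members passed with all arrays, 1 with the replicate block, and 1 to 4 with 1 array left out, the 4 without siControl replicate 3. Over all probe sets of the members 4 passed, 8 with array weights, 2 with the replicate block and 2 to 10 with 1 array left out. Of 19775 genes 1442 passed, 5109 with array weights, 245 with the replicate block and 217 to 5357 with 1 array left out. Of the pathway genes 12 passed, 35 with array weights, 1 with the replicate block and 1 to 34 with 1 array left out. Quantile normalization, median centring, the filter on dim features, averaged probe sets and the trended fit kept each of these counts within 1.5 times. With the replicate block EREG lost its call (limma adjusted p = 0.0687), as did EGFR 201983_s_at (0.0815). Same-numbered arrays correlated in their deviations from the group means at -0.04, -0.01 and -0.01. With 3 arrays a group and siControl replicate 3 apart, these values cannot decide whether same-numbered arrays were paired. Over member genes and probe sets, 21 differences under single settings had the opposite sign to the value with all arrays, with neither value past the threshold. HGS lost its call with quantile normalization (limma adjusted p = 0.0546) and the trended fit (0.0583).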
